A study of Spirodela polyrhiza with 16 samples.

Results

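Sp06g01336 is a gene of the giant duckweed Spirodela polyrhiza. The deposited table pairs it with cis-prenyltransferase 4 of tomato, a chloroplast enzyme, and with the Pfam family PF01255 that defines cis-prenyltransferases. It is 1 of 20389 gene models in the table and was picked by its identifier, because its level had been seen to be higher after phosphate withdrawal in both fronds and roots of these same libraries. Those phosphate differences are given as a description, with no test. The model lies on the plus strand of chromosome 6, from 8296159 to 8298844 in the coordinates of the deposited table, whose genome build is not given in the sources used here. It spans 2686 bases with a coding length of 1074 bases, and its exons and UTRs are not given in the table. The table holds 3 other models with PF01255, which serve as its background.

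Cis-prenyltransferases join isopentenyl diphosphate units to an allylic starter and leave the new double bonds in the cis configuration. Their products include dolichols, which carry sugars for protein glycosylation in the endoplasmic reticulum, the polyprenols of plastid membranes and, in tomato, short precursors of terpenes. Trans-prenyltransferases use the same building blocks to make farnesyl, geranylgeranyl and solanesyl diphosphate, from which carotenoids, the side chains of chlorophyll and tocopherol, and plastoquinone are built. Whether the duckweed protein has the activity of its tomato homolog was not measured.

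All plants were of clone 9509, a single genotype of a small floating plant with a leaf-like frond and short hanging roots. They grew on 100 ml of liquid medium in flasks of 250 ml, and the medium was replaced on day 10 either by medium without the phosphate salt KH2PO4 or by full medium. The plants were harvested on day 11, so phosphate was missing for 1 day. The 4 groups were roots without phosphate, control roots, fronds without phosphate and control fronds, with 4 polyadenylated RNA libraries each. Each library is a pool of the plants of 1 flask, so p-values measure the spread between flasks of 1 clone. Libraries are named here by the number of their column, 5 to 8 for no phosphate and 1 to 4 for control in each tissue. In whole organs, fewer cells of a type and less RNA per cell cannot be told apart.

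Libraries held 6325297 to 12437151 reads in genes, recovered from the deposited values, and between 189 and 4295 of them belonged to Sp06g01336. The labelled tissues were checked with markers. The summed level of the 15 chlorophyll a-b binding protein homologs was 11414 to 18753 FPKM in roots without phosphate and 14274 to 21391 FPKM in control roots. It was 40521 to 45817 FPKM in fronds without phosphate and 43606 to 47604 FPKM in control fronds, so transcripts of the photosynthetic apparatus were lower but abundant in roots. A homolog of Casparian strip membrane protein 1 (Sp04g00111), a marker of the root endodermis, averaged 36.2 ± 14.7 and 51.8 ± 13.4 FPKM in roots without phosphate and control roots, against 2.77 ± 0.875 and 2.99 ± 0.866 FPKM in fronds without phosphate and control fronds (SD, n = 4 each). The root markers as a list, matched by keyword, were mixed. Of the 23 genes 22 were tested, of which 9 were called higher and 8 lower in roots at an adjusted p under 0.05 (limma), while 74.7% of all genes tested were called between tissues. The summed level of the 23 was 327 to 392 FPKM in roots and 292 to 319 FPKM in fronds.

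In fronds without phosphate, Sp06g01336 stood at 661, 521, 360.4 and 323 FPKM in libraries 5 to 8. In control fronds it stood at 114, 156, 78.1 and 59.3 FPKM in libraries 1 to 4. Every library without phosphate was above every control library, and the lowest of them was 2.07 times the highest control. The means were 466 ± 156 FPKM without phosphate and 102 ± 42.5 FPKM in control (SD, n = 4 each), 4.58 times apart. On the log2(FPKM + 1) scale the difference was 2.22 ± 0.39 (SE), the third largest rise among the 16598 genes tested, those averaging 0.5 FPKM or more over all libraries.

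In roots without phosphate the level was 99.7, 155, 205 and 245 FPKM in libraries 5 to 8. In control roots it was 77.3, 51.5, 25.5 and 24.5 FPKM in libraries 1 to 4. The groups did not overlap here either, but the gap was narrower, with the lowest library without phosphate at 1.29 times the highest control. The means were 176 ± 62.8 FPKM without phosphate and 44.7 ± 25.1 FPKM in control (SD, n = 4 each), 3.94 times apart. The log2 difference was 2.04 ± 0.39 (SE), the fourth largest rise of the 16598 genes. The root response minus the frond response was -0.18 ± 0.55 (SE) on the log2 scale, a difference smaller than its error. Leaving out 1 library at a time moved the log2 difference between 1.99 and 2.45 in fronds and between 1.81 and 2.35 in roots.

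**Figure D1:**
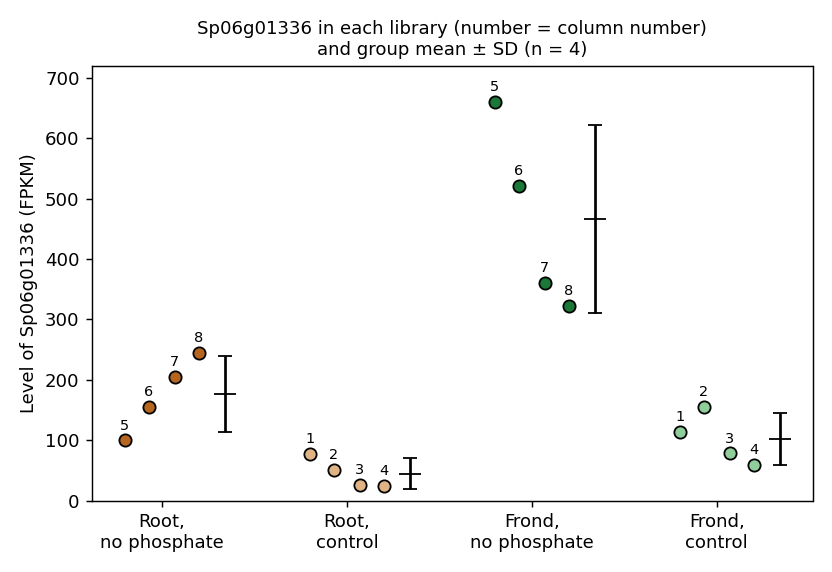
Level of Sp06g01336 in FPKM (vertical axis, linear, from 0) in each of the 16 libraries, with the column number above each point and the group mean ± SD beside it (n = 4). The 4 frond libraries without phosphate lie between 323 and 661 FPKM and the 4 root libraries without phosphate between 99.7 and 245 FPKM, each set above all 4 controls of its tissue.

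The gene varied widely among libraries of 1 group. The highest library was 2.45 times the lowest in roots without phosphate, 3.16 times in control roots, 2.05 times in fronds without phosphate and 2.62 times in control fronds. The SD of log2(FPKM + 1) was 0.56, 0.79, 0.48 and 0.60 in these groups in that order. It exceeded the SD of 88.8%, 98.1%, 96.6% and 97.4% of the genes whose mean lay within 0.5 to 2 times that of Sp06g01336 in the same group. Among controls, libraries 1 and 2 were the highest in both tissues. Among libraries without phosphate, number 5 was the highest in fronds and the lowest in roots.

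Sp06g01336 was lower in roots than in fronds, a contrast averaged over both media that was not used to pick the gene. Its mean in roots without phosphate was 37.8% of the mean in fronds without phosphate, and its mean in control roots was 43.9% of the mean in control fronds. The 4 roots without phosphate lay below every frond without phosphate. Of the control roots, 3 lay below every control frond, while library 1 at 77.3 FPKM lay above the lowest control frond at 59.3 FPKM. The log2 difference, root minus frond, was -1.42 ± 0.39 without phosphate, -1.24 ± 0.39 in control medium and -1.33 ± 0.27 (SE) averaged over media, with an adjusted p = 0.00036 (limma, Benjamini-Hochberg over all genes tested). An exact two-sided permutation of the tissue labels within each medium (4900 arrangements, n = 4 per group) gave p = 0.000816, where the smallest possible is 0.000408.

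Calls between tissues were common, with 36.3% of the 16598 genes called higher and 38.4% lower in roots. The chlorophyll a-b binding protein homologs moved the same way, with 13 of 15 called lower and 1 higher in roots. The part of chloroplast content in the lower root level of Sp06g01336 was not tested. With all libraries rescaled to the same summed FPKM the difference was -1.05 and the median of all genes moved to 0.23 from -0.02. Relative to those medians the gene stood at -1.27 after rescaling and at -1.31 as deposited.

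The level of Sp06g01336 relative to other genes, per coding length, was highest in fronds without phosphate. It ranked at place 319 of 20389 genes there, at 959 in roots without phosphate, at 1572 in control fronds and at 3771 in control roots. In the order of the 4 group means, control fronds (102 ± 42.5 FPKM) and roots without phosphate (176 ± 62.8 FPKM) overlapped in their libraries, as did control roots and control fronds. Fronds without phosphate overlapped with no other group.

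Among the 4 models with PF01255, only Sp06g01336 and Sp01g01513 passed the filter on low values. Sp06g01336 made up 93.1 ± 2.83% of the FPKM of the 4 models in roots without phosphate, 79.8 ± 7.81% in control roots, 98.7 ± 0.332% in fronds without phosphate and 94.0 ± 2.56% in control fronds (SD, n = 4 each). Sp01g01513 (chromosome 1, 9697981 to 9701379, plus strand) is paired with the dehydrodolichyl diphosphate synthase CPT3 of tomato, an enzyme of dolichol synthesis, and its model also carries a LOB domain (PF03195).

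Sp01g01513 stood at 12.5, 8.58, 12.1 and 14.6 FPKM in roots without phosphate, libraries 5 to 8, and at 9.65, 9.98, 8.60 and 9.30 FPKM in control roots, libraries 1 to 4. It stood at 7.15, 5.65, 3.89 and 5.61 FPKM in fronds without phosphate and at 5.80, 4.60, 6.05 and 5.52 FPKM in control fronds. The phosphate groups overlapped in both tissues, and its differences were 0.00 ± 0.17 in fronds (adjusted p = 1, limma) and 0.30 ± 0.17 in roots (SE, adjusted p = 0.383, limma). Of all genes tested, 4.41% were called for phosphate in fronds and 0.422% in roots, while this 1 tested background gene was called in neither.

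Sp01g01513 was higher in roots, opposite to Sp06g01336, by 0.83 ± 0.12 on the log2 scale (SE, adjusted p = 7.71e-06, limma). The FPKM of Sp06g01336 was 14.9 ± 4.68 times that of Sp01g01513 in roots without phosphate and 4.69 ± 2.48 times in control roots. In fronds it was 83.7 ± 17.4 times without phosphate and 19.3 ± 10.4 times in control (SD, n = 4 each). The log2 ratio differed between roots and fronds by -2.28, with an exact permutation p = 0.000408 within media (n = 4 per group), the smallest possible.

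The other 2 background models, both also paired with tomato cis-prenyltransferase 4, had hardly any reads. Sp07g01099 (chromosome 7, 7893301 to 7895427, plus strand) had 3, 2, 4 and 3 reads in fronds without phosphate, libraries 5 to 8, and 2, 0, 0 and 1 in control fronds, libraries 1 to 4. It had 0 reads in all 4 roots without phosphate and 1 read in the 4 control roots. In FPKM this was 0.310 to 0.619 in fronds without phosphate and 0 to 0.294 in control fronds, while 3 reads were worth 0.253 to 0.604 FPKM across the libraries. Sp09g00002 (chromosome 9, 4602 to 7759, minus strand) had 1 read, in control root library 4, and 0 in the other 15 libraries. Neither was tested. Whether counting split reads between such copies is not stated in the sources used here.

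**Figure D2:**
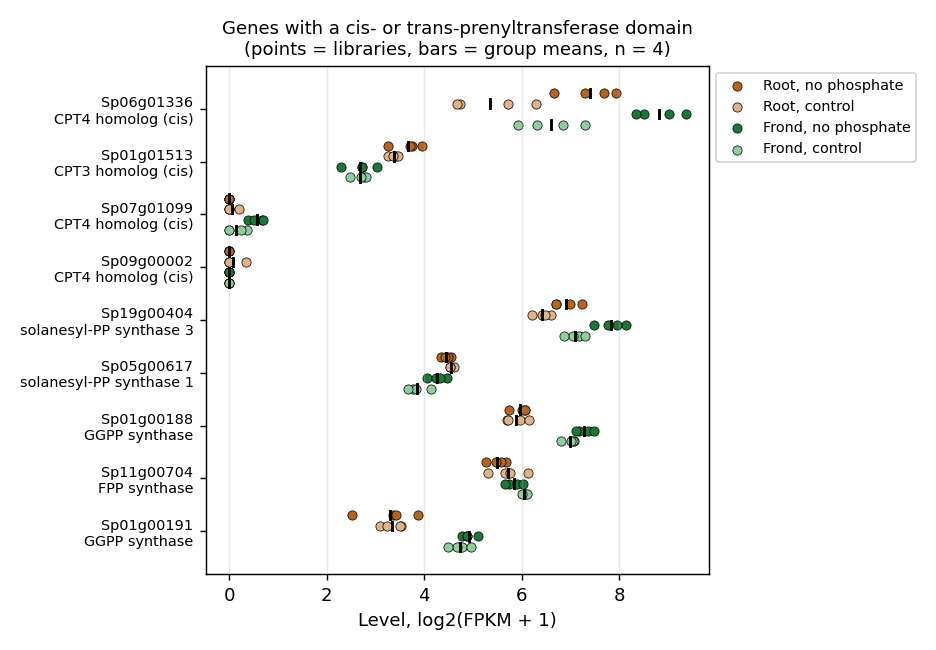
Levels of the 4 genes with a cis-prenyltransferase domain and the 5 with a trans-prenyltransferase domain, on the log2(FPKM + 1) scale (horizontal axis), with 1 point per library and a bar at each group mean (n = 4). Sp06g01336 is the only one of the 9 whose group means lie over 2 log2 units apart within each tissue. Sp07g01099 and Sp09g00002 lie at or near 0, where this scale understates changes.

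Of the 5 trans-prenyltransferases in the table (PF00348), all passed the filter. In fronds 2 were called higher and 0 lower without phosphate, where 2.11% and 2.30% of all genes were, and in roots 0 were called. Sp19g00404, a homolog of the chloroplast solanesyl diphosphate synthase 3 of rice, stood at 281, 246, 217 and 176 FPKM in fronds without phosphate and at 144, 156, 131 and 116 FPKM in control fronds. Its groups did not overlap, and it rose by 0.74 ± 0.16 (SE, adjusted p = 0.0174, limma). The call was lost, with adjusted p up to 0.071, without no-phosphate frond library 5 or 6 or control frond library 4. In roots it averaged 120.3 ± 22.1 FPKM without phosphate and 85.3 ± 9.84 FPKM in control (SD, n = 4 each), a difference of 0.48 ± 0.16 that missed the threshold (adjusted p = 0.143, limma).

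The other called member, the mitochondrial solanesyl diphosphate synthase 1 homolog Sp05g00617, averaged 18.4 ± 2.26 FPKM in fronds without phosphate and 13.6 ± 2.12 FPKM in control fronds (SD, n = 4 each; adjusted p = 0.0474, limma). That call was lost in 18 of 23 alternatives, with adjusted p up to 0.146. The geranylgeranyl diphosphate synthase homolog Sp01g00188 averaged 155.5 ± 18.0 FPKM in fronds without phosphate and 126 ± 10.8 FPKM in control fronds (adjusted p = 0.174, limma). The farnesyl diphosphate synthase homolog Sp11g00704 averaged 56.3 ± 6.42 and 65.3 ± 2.22 FPKM in these groups (adjusted p = 0.407, limma). Sp06g01336 made up 47.6 ± 5.53% of the FPKM of all 9 cis- and trans-prenyltransferase genes in fronds without phosphate and 20.8 ± 5.74% in control fronds. In roots it made up 38.6 ± 9.22% without phosphate and 15.5 ± 7.97% in control (SD, n = 4 each).

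Both pathways that supply isopentenyl diphosphate were followed. The plastid MEP pathway, matched by keyword, had 11 genes, all tested, of which 1 rose without phosphate in fronds (9.09%), against 2.11% of all genes called higher. In roots 0 were called, against 0.422% of all genes. The median difference was -0.05 in fronds and 0.10 in roots, against 0.01 and -0.01 over all genes. The called gene was Sp08g00358, a homolog of 1-deoxy-D-xylulose 5-phosphate reductoisomerase, which makes the first dedicated intermediate of the pathway. It stood at 228, 223, 191 and 185 FPKM in fronds without phosphate and at 145, 151, 127 and 122 FPKM in control fronds, with no overlap, and rose by 0.60 ± 0.13 (SE, adjusted p = 0.0223, limma). The call was lost, with adjusted p up to 0.0831, without no-phosphate frond library 5 or 6 or control frond library 3 or 4. In roots it averaged 202 ± 23.4 FPKM without phosphate and 150.7 ± 27.6 FPKM in control, and the libraries overlapped (adjusted p = 0.129, limma). Its level did not separate roots from fronds (0.05 ± 0.10, adjusted p = 0.65, limma), while 9 of the 11 were called lower and 1 higher in roots, against 38.4% and 36.3% of all genes.

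The homologs of 4-hydroxy-3-methylbut-2-en-1-yl diphosphate synthase, Sp02g00008 and Sp02g00009, are neighbouring models. Sp02g00009, with a coding length of only 267 bases, averaged 560.0 ± 63.2 FPKM in fronds without phosphate and 458 ± 53.8 FPKM in control fronds (adjusted p = 0.301, limma). Sp02g00008, with 4011 bases, averaged 162 ± 9.90 and 152 ± 15.1 FPKM in these groups (adjusted p = 0.723, limma). The cytosolic mevalonate pathway had 6 genes, all tested, and 0 were called in either tissue, against 4.41% of all genes in fronds and 0.422% in roots. The medians were -0.13 in fronds and -0.09 in roots. Its hydroxymethylglutaryl-CoA synthase homolog Sp14g00568 averaged 106 ± 28.4 FPKM in fronds without phosphate and 153 ± 20.2 FPKM in control fronds (adjusted p = 0.0958, limma). Its reductase homolog Sp05g00873, the main control step of the pathway in plants, averaged 147 ± 43.3 FPKM in fronds without phosphate and 103 ± 23.1 FPKM in control fronds (adjusted p = 0.282, limma).

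Genes matched by keyword to polyprenols and dolichols, the long-chain products of cis-prenyltransferases, numbered 18, all tested. They include genes of dolichol synthesis, among them the background gene Sp01g01513. In fronds 0 were called for phosphate, against 4.41% of all genes, and in roots 0, against 0.422%, with medians of 0.04 and 0.07. The polyprenol reductase 2 homolog Sp20g00208, of the Arabidopsis family that reduces polyprenol to dolichol, stood at 36.0, 40.8, 45.4 and 48.5 FPKM in fronds without phosphate and at 56.4, 52.0, 51.8 and 61.6 FPKM in control fronds. Its values were 15.0, 15.3, 16.1 and 17.0 FPKM in roots without phosphate and 20.9, 19.9, 23.3 and 17.7 FPKM in control roots. The groups did not overlap in either tissue, with those without phosphate below the controls, but the differences of -0.37 ± 0.11 in fronds and -0.34 ± 0.11 in roots missed the threshold (adjusted p = 0.0611 and 0.137, limma). The dolichol kinase EVAN homolog Sp20g00104 averaged 9.81 ± 1.07 FPKM in roots without phosphate and 6.52 ± 0.244 FPKM in control roots (SD, n = 4 each; adjusted p = 0.0799, limma).

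The carotenoid list had 36 genes, of which 27 were tested. In fronds 2 of the 27 rose (7.41%), against 2.11% of all genes called higher, and in roots 0 were called, against 0.422% of all genes. The keywords also took in a squalene synthase (Sp06g00545) and a respiratory complex assembly factor (Sp09g00021). The phytoene synthase homolog Sp13g00811, at the entry to carotenoid synthesis, stood at 319, 289.5, 257 and 217 FPKM in fronds without phosphate and at 137, 139, 151.5 and 107 FPKM in control fronds. Its groups did not overlap, and it rose by 1.01 ± 0.17 (SE, adjusted p = 0.00707, limma). In roots it averaged 69.1 ± 15.3 FPKM without phosphate and 43.1 ± 6.27 FPKM in control (adjusted p = 0.0841, limma).

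The beta-carotene hydroxylase 2 homolog Sp11g00396 averaged 320.4 ± 49.0 FPKM in fronds without phosphate and 236.5 ± 15.9 FPKM in control fronds (adjusted p = 0.043, limma), a call lost in 10 of 23 alternatives with adjusted p up to 0.138. The NCED3 homolog Sp02g00214, of the family that cleaves carotenoids toward abscisic acid, stood at 8.31, 4.27, 0.648 and 1.09 FPKM in fronds without phosphate and at 0.176, 0.378, 0.103 and 0.213 FPKM in control fronds. Its frond groups did not overlap, but libraries 5 and 6 stood far above 7 and 8, and the difference just missed the threshold (adjusted p = 0.05003, limma). Keywords for the prenyl side chains of chlorophyll and tocopherol matched 8 genes, including enzymes that act elsewhere on tocopherol. All 8 were tested and 0 were called for phosphate, against 4.41% of all genes in fronds and 0.422% in roots. The probable tocopherol O-methyltransferase Sp11g00058 averaged 174 ± 12.1 FPKM in fronds without phosphate and 149.7 ± 9.50 FPKM in control fronds (adjusted p = 0.266, limma).

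Over all these lists 84 genes matched and 75 were tested. In fronds 5 rose and 0 fell, 6.67% of those tested, against 2.11% of all genes called higher. At an unadjusted p under 0.05 there were 17 of the 75 in fronds (22.7%), against 20.7% of all genes. The count of 5 was 1 without frond library 5 or 6 of the no-phosphate group or without control frond library 4. It was 2 without control frond library 3, and 3 without control frond library 1 or control root library 2. In roots 0 of 75 were called by limma, where 0.422% of all genes were called, 0.355% higher and 0.0663% lower. At an unadjusted p under 0.05 there were 16 of the 75 in roots (21.3%), against 16.3% of all genes. With voom weights on the recovered reads and median-ratio size factors 1 was called, the dolichol kinase homolog Sp20g00104 (adjusted p = 0.0385, limma). Without root library 5 of the no-phosphate group 2 were called, and without control root library 1 there was 1. In the tissue contrast 45 of the 75 (60.0%) were lower and 16 (21.3%) higher in roots, against 38.4% and 36.3% of all genes. On the log2(FPKM + 1) scale the largest difference of a list member was 1.57 in fronds and 0.81 in roots, both of Sp02g00214. For Sp06g01336 it was 2.22 and 2.04. Sp02g00214 is a low gene, whose changes this scale understates. It averaged 3.58 ± 3.54 FPKM in fronds without phosphate and 0.218 ± 0.116 FPKM in control fronds (SD, n = 4 each). By the ratio of these means it rose more than Sp06g01336 in fronds, resting mostly on libraries 5 and 6.

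**Figure D3:**
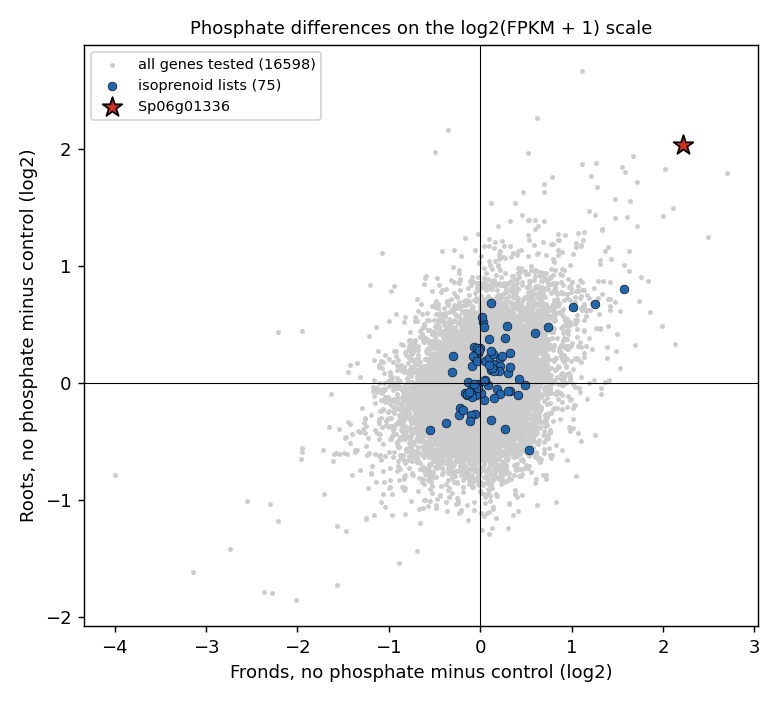
Difference without phosphate minus control on the log2(FPKM + 1) scale, in fronds (horizontal axis) and in roots (vertical axis), for the 16598 genes tested (grey), the 75 tested isoprenoid genes (blue) and Sp06g01336 (star, at 2.22 and 2.04). The blue points gather around 0 and all lie to the left of and below the star on this scale. It understates changes of low genes such as Sp02g00214. The star gene was picked for being higher without phosphate on both axes.

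A gene of plastoquinone and tocopherol synthesis outside the lists was chosen after its values were seen. It was taken from the genes called in both tissues, so its calls are a description and not separate evidence. Sp09g00842, a homolog of 2-methyl-6-phytyl-1,4-hydroquinone methyltransferase, which methylates the ring of both products, stood at 924, 901, 903 and 760.2 FPKM in fronds without phosphate and at 499.8, 534, 463 and 376 FPKM in control fronds. In roots it averaged 327 ± 65.8 FPKM without phosphate and 190.0 ± 28.4 FPKM in control (SD, n = 4 each). The groups did not overlap in either tissue. It rose by 0.90 ± 0.16 in fronds (adjusted p = 0.00815, limma) and by 0.77 ± 0.16 in roots (adjusted p = 0.0455, limma), and the root call was lost in 15 of 23 alternatives, with adjusted p up to 0.317.

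Among the 16598 genes tested, no other had phosphate differences as large as those of Sp06g01336 in both tissues on the log2(FPKM + 1) scale. That scale understates changes of low genes, and 7 others reached 1.5 on it in both tissues. Of these, 4 have a homolog or domain, and they are named here after their values were seen. They were picked by these same differences, so their phosphate p-values are a description and not separate evidence. The mitochondrial small heat shock protein homolog Sp07g00981 averaged 51.2 ± 27.9 FPKM in fronds without phosphate and 6.35 ± 2.18 FPKM in control fronds, and 10.9 ± 7.96 FPKM in roots without phosphate and 2.37 ± 2.10 FPKM in control roots. It was called in fronds (2.70 ± 0.55, adjusted p = 0.0152, limma) and not in roots (1.80 ± 0.55, adjusted p = 0.121, limma). The frond call was lost, with adjusted p up to 0.0596, without no-phosphate frond library 5 or 6 or control frond library 4. The root response minus the frond response was -0.90 ± 0.78 (SE, adjusted p = 0.681, limma). The heat shock protein 83 homolog Sp02g01176, a chaperone of the HSP90 family, averaged 5.48 ± 2.82 and 1.07 ± 0.402 FPKM in fronds and 6.24 ± 2.72 and 0.947 ± 0.480 FPKM in roots, without phosphate and in control in each case. It was called in both tissues (adjusted p = 0.0169 in fronds and 0.0287 in roots, limma), calls lost in 5 and 7 of 23 alternatives. By the ratio of mean FPKM, both Sp07g00981 and Sp02g01176 rose more than Sp06g01336 in each tissue.

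The Rubisco activase homolog Sp01g01702, which keeps the carbon-fixing enzyme active, differed by 1.71 ± 0.42 in fronds (adjusted p = 0.0314, limma) and by 1.72 ± 0.42 in roots (adjusted p = 0.0718, limma). Its frond call was lost in 8 of 23 alternatives, with adjusted p up to 0.106. A homolog of a heavy metal-associated isoprenylated plant protein, Sp14g00554, differed by 1.67 and 1.94 but with an error of 1.11, and was called in neither tissue. With Sp06g01336 left aside as not tested for phosphate, 31 genes were called in both tissues. Of the 16598 genes tested, 4.41% were called in fronds and 0.422% in roots. Leaving out 1 library at a time moved the number of root calls from 70 to between 0 and 791.

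Sp06g01336 is the second to last model of chromosome 6 in the table, with 1 model after it. No model overlaps it, and its nearest neighbours lie 10.1 kb before and 9.55 kb after. The 5 models before it were tested, and 0 of 5 were called for phosphate in either tissue under any of the alternatives, where 4.41% of all genes were called in fronds and 0.422% in roots. The nearest, Sp06g01335, is a homolog of ammonium transporter 1;3. It averaged 45.2 ± 10.2 FPKM in roots without phosphate and 27.0 ± 6.63 FPKM in control roots (SD, n = 4 each; 0.73 ± 0.23, adjusted p = 0.132, limma). In fronds it averaged 31.2 ± 7.29 FPKM without phosphate and 23.5 ± 8.22 FPKM in control (adjusted p = 0.317, limma).

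The next, Sp06g01334, is a homolog of the chloroplast zinc metalloprotease EGY2 and differed by -0.16 ± 0.09 in fronds (adjusted p = 0.341, limma) and by -0.02 ± 0.09 in roots (SE, adjusted p = 0.935, limma). The ribosomal protein P0 homolog Sp06g01333, the undescribed Sp06g01332 and Sp06g01331, a homolog of the Arabidopsis protein EAP3, had adjusted p of 0.39 to 0.772 over both tissues. The model after it, Sp06g01337, a homolog of the signalling peptide RALF-like 4, reached at most 0.361 FPKM and was not tested. Between tissues, 4 of the 5 tested neighbours were called, where 74.7% of all genes were. The tissue call of Sp06g01335 (adjusted p = 0.0482, limma) was lost in 13 of 22 alternatives.

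**Figure D4:**
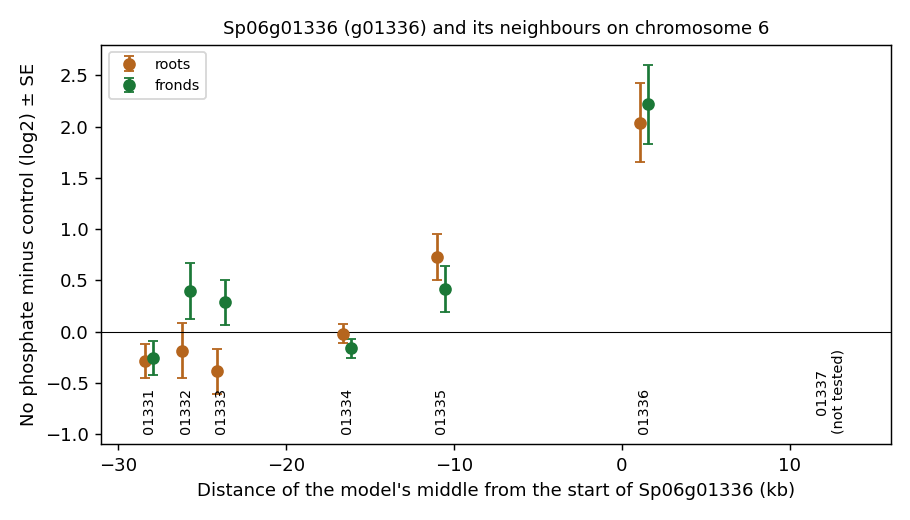
Difference without phosphate minus control on the log2(FPKM + 1) scale ± SE (vertical axis), in roots and fronds, for Sp06g01336 and its neighbours by distance in kb from its start (horizontal axis). The gene stands at 2.04 in roots and 2.22 in fronds, while no tested neighbour exceeds 0.73 in either.

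Genes with a similar profile were ranked by Pearson's r of log2(FPKM + 1) over the 16 libraries, among the 9892 other described genes that averaged 5 FPKM or more. These r rest largely on the 4 group means and on deviations that genes of a library share, so they are given as a description. The highest were Sp16g00057, a protein with a domain of unknown function (r = 0.959), and Sp01g01152, a homolog of ALTERED PHOSPHATE STARVATION RESPONSE 1 (r = 0.957), which in Arabidopsis takes part in root growth when phosphate is short. Next came Sp03g00748, paired with a bacterial aminoacrylate hydrolase (r = 0.957), and Sp12g00473, a homolog of fumarylacetoacetase, the last enzyme of tyrosine breakdown (r = 0.956). They were followed by the chloroplast proteins thioredoxin-like 2 (Sp05g00184, r = 0.955), anion transporter 6 (Sp12g00049, r = 0.951) and the MATE-type carrier DETOXIFICATION 46 (Sp20g00395, r = 0.949), and by Sp03g00485, an uncharacterised protein (r = 0.948).

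These 8 shared the order of the groups but not the size of the response. Their phosphate differences were 0.53 to 1.04 in fronds and 0.48 to 1.11 in roots. Sp01g01152 stood at 30.3, 45.6, 44.7 and 50.4 FPKM in roots without phosphate and at 28.9, 23.4, 21.1 and 20.7 FPKM in control roots. Its root groups did not overlap, with library 5 as the lowest without phosphate and library 1 as the highest control, the same libraries as for Sp06g01336. Sp12g00049 averaged 36.9 ± 7.64 FPKM in fronds without phosphate and 18.4 ± 3.59 FPKM in control fronds, and 27.7 ± 6.83 FPKM in roots without phosphate and 15.1 ± 2.59 FPKM in control roots (SD, n = 4 each).

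Within groups, the genes whose deviations from the group means followed those of Sp06g01336 most closely were others. They were homologs of ATP-dependent phosphofructokinase 3 of glycolysis (Sp13g00568, r = 0.944), the vitamin B6 enzyme subunit PDX1 (Sp01g01840, r = 0.934) and a pentatricopeptide repeat protein (Sp01g01820, r = 0.931). After these came the chloroplast translocon protein PTC52 (Sp03g00758, r = 0.901) and an uncharacterised methyltransferase (Sp15g00145, r = 0.901). Over all 16 libraries Sp13g00568 had r = -0.123, since it was higher in roots, at 148 ± 20.0 and 89.3 ± 19.9 FPKM in roots without phosphate and control roots against 35.3 ± 7.29 and 22.0 ± 4.00 FPKM in fronds without phosphate and control fronds (SD, n = 4 each). Of the isoprenoid genes, the solanesyl diphosphate synthase Sp19g00404 was nearest over all libraries with r = 0.883, at rank 68. The reductoisomerase Sp08g00358 was nearest within groups with r = 0.873, at rank 12. The background gene Sp01g01513 had r = -0.268 over all libraries.

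**Figure D5:**
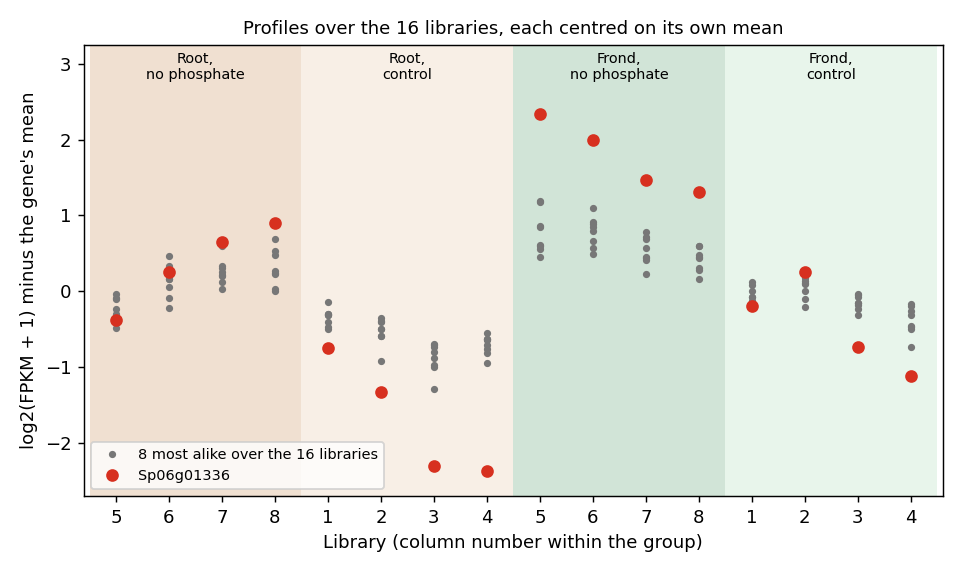
Level of Sp06g01336 (large red points) and of the 8 genes most like it over all libraries (small grey points), as log2(FPKM + 1) minus each gene's own mean (vertical axis), in each of the 16 libraries (horizontal axis, column numbers within groups). By group mean all 9 genes are highest in fronds without phosphate and lowest in control roots, and the red points span the widest range.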

How the data were processed

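Poly(A) RNA of the 16 pools was read as 150 bp pairs. The submitters' processing notes name HISAT2 2.0.5 and featureCounts 1.5.0-p3. Whether counting used strand is not stated. The authors deposited FPKM, per the file headers, beside coding length, position, homolog and Pfam domains. FPKM times length were whole multiples of 1 step for 100% of values (tolerance 0.001 reads), which gave the reads. The library size implied by the step was 0.886 to 1.14 times the summed reads (below 1 in fronds, above 1 in roots), a scaling not described in the sources used here. The table also has 1 line that was not used.

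With limma 3.58.1 (R 4.3.3, statmod 1.5.0, trended robust prior) 1 mean per group was fitted to log2(FPKM + 1) of the 16 libraries, leaving 12 residual degrees of freedom. Genes averaging 0.5 FPKM or more were tested (16598) and 3791 were not. P-values are two-sided, Benjamini-Hochberg adjusted within each contrast over all genes tested, and calls are at an adjusted p under 0.05. This scale understates changes of low genes. Alternatives were a pseudocount of 0.1, no filter, a common sum, each tissue alone, a replicate block and leaving out each library. Limma's voom on the recovered reads, with summed library sizes or median-ratio size factors, was added after seeing the data.

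Sp06g01336, the keyword lists and the tests were chosen with earlier results of these data known. Named were the PF01255 genes, up to 4 members per list with the smallest adjusted p in either phosphate contrast (the text gives part), up to 5 models on each side (5 before and 1 after), and the 8 and 5 genes most alike over libraries and within groups. The columns show tissue and treatment but not which titled replicate they are, and no libraries were paired.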

Additional observations from a re-analysis of the deposited data

Results flagged for a closer look

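Of 212 groups of 4 libraries over the 56 genes screened, 9 held 1 library whose gap to the nearest other exceeded Dixon's 95% critical value as a share of the group's range, which chance alone gives in about 1 group in 20. Sp06g01336 was not among them.

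Among its neighbours, Sp06g01333 stood at 349 FPKM in no-phosphate root library 6 and at 163 to 172 FPKM in the other 3. Sp06g01335 stood at 36.8 FPKM in control root library 3 and at 22.8 to 24.7 FPKM in the others, and Sp06g01332 at 7.89 FPKM in control root library 4 and at 3.83 to 4.30 FPKM in the others.

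Among genes with a similar profile, Sp03g00485 stood at 19.2 FPKM in no-phosphate root library 5 (38.0 to 41.7 FPKM in the others) and at 19.0 FPKM in control root library 1 (13.4 to 13.9 FPKM in the others). Sp01g01840 stood at 371 FPKM in no-phosphate root library 5, against 449 to 459 FPKM in the other 3. Outside these, Sp09g00842, chosen after its values were seen, stood at 760.2 FPKM in no-phosphate frond library 8, against 901 to 924 FPKM in the other 3.

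Of the undescribed genes with large differences in both tissues, Sp09g00115 stood at 13.4 FPKM in no-phosphate frond library 5, against 1.87 to 3.43 FPKM in the other 3. Sp09g00680 stood at 39.8 FPKM in control root library 1, against 4.54 to 6.36 FPKM in the other 3.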

How the results depend on the processing

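The root minus frond difference of Sp06g01336 kept its sign and call in all 22 alternatives, from -1.48 to -1.20 with 1 library left out and from -1.35 to -1.05 otherwise, with adjusted p of 8.12e-05 to 0.00305 (limma). Its untested phosphate differences were 2.17 to 2.23 in fronds and 2.00 to 2.07 in roots under the alternatives that left no library out. With no filter on low values, Sp07g01099 was also called, which gave 1 background gene for phosphate in fronds and 2 between tissues. Isoprenoid calls ranged from 1 to 6 in fronds and from 0 to 2 in roots with 1 library left out, and 1 was called in roots by voom with median-ratio size factors. Over the whole table, calls in fronds (732) were 154 to 972 with 1 library left out and 1772 with fronds fitted alone. Calls in roots (70) were 0 to 791 with 1 library left out, 25 with a common sum, 138 by voom with median-ratio size factors, and 0 with roots fitted alone. With a common sum the frond calls split into 241 higher and 590 lower, against 351 and 381, the root calls into 16 and 9, against 59 and 11, and 61.4% of the tissue calls were higher in roots, against 48.6%. Under that scaling the root minus frond differences of Sp04g01204 and Sp12g00147 turned positive, at 0.00186 and 0.026. Neither was called there (adjusted p = 0.987 and 0.761, limma). The causes were not tested. Count-model fits of the recovered reads, planned for FPKM that give whole reads, were not run, and limma's voom took their place after the data were seen.

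Numbers shared by frond and root columns showed little pairing in the values. Deviations of columns with the same number correlated at -0.12 to 0.15, over 0.1 in 2 of 8 numbers. Of 8 frond libraries, 3 correlated best with their own number. This check cannot show whether a frond and a root library came from the same flask. With the replicate block the gene's tissue difference was -1.33, and 728 genes were called in fronds and 72 in roots.

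Of 3536 repeated values of 52 single genes, 191 lost a call, 65 gained one, and 2 more both changed sign and lost the call. In addition, 46 differences that were not called changed sign. Sp06g01336 rests on 189 reads or more per library, while Sp07g01099 had at most 4 and Sp09g00002 at most 1, so depth limits what their values show. Intervals were not computed for single libraries.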
